A study of Homo sapiens with 6 samples.

Results

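Collagens are the chains that make up the triple-helical proteins of the extracellular matrix. The genes described here are the 43 of 20061 rows in the deposited table that carry a collagen chain name (COL, a number, A and a number). They were compared in HEYA8 cells, an established human ovarian cancer line that the labels place under low grade serous carcinoma. The control group stably expressed a lentiviral short hairpin RNA against luciferase, which these cells do not encode (shLuciferase, 3 samples). The other group expressed a hairpin of the same kind against the transcription factor ETS1 (shETS1, 3 samples). Both groups were grown under puromycin, and the labels name neither the number of hairpins per target nor whether the samples were separate cultures. The authors deposited 1 level per gene and group, in FPKM (fragments scaled to transcript length and library size), so each level below is the authors' group value. Such a value has no spread of its own, and the depth behind it is unknown.

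Each collagen chain has stretches in which glycine recurs at a regular step, and these stretches wind into a triple helix. Fibrillar collagens build the cables of stroma, collagen IV forms the sheet of basement membranes, and collagen VI forms beaded microfibrils where such sheets meet the stroma. Collagen VII anchors basement membranes to the stroma, FACIT collagens decorate fibrils, and some members span the plasma membrane. Inside the cell the chains are hydroxylated, folded with chaperones and exported; outside it they are trimmed and crosslinked. ETS1 binds DNA through a core of the letters GGAA and is known in cancer and stromal cells as a regulator of matrix proteases.

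The knockdown and the identity of the cells were checked first. ETS1 was at 41.4 FPKM with the luciferase hairpin and at 17.9 with its own hairpin, and was called lower in the authors' deposited table (q = 0.00964). A gene is termed called at a q-value, the authors' p-value adjusted over all tested rows, of at most 0.05. PAX8, a lineage factor of the Müllerian tract, was at 79.7 and 76.8 FPKM, and KRT18, an epithelial keratin whose locus overlaps that of KRT8, at 2044 and 1498 FPKM. Of the 8 ovarian carcinoma and epithelial markers, KRT8 (1913 and 1288 FPKM) and KRT7 (1187 and 910 FPKM) were also abundant. The others were low: KRT19 at 3.55 and 3.80 FPKM, EPCAM at 1.71 and 1.82 FPKM and SOX17 at 1.15 and 2.38 FPKM. MUC16 was untested at 0.000625 and 0 FPKM. Of 8 fibroblast markers, 3 were tested and none was called in the authors' deposited table, where 0.812% of all tested rows were called in either direction. The 3 tested ones were ACTA2 at 46.9 and 57.8 FPKM, PDPN at 29.1 and 36.4 FPKM and FAP at 4.598 and 6.308 FPKM. Each had a log2 fold change above 0, with a median of 0.32. The untested DCN was listed at 0 in both groups, LUM at 0.0123 and 0.0178 FPKM and PDGFRA at 0.0127 and 0.0454 FPKM. The fibroblast markers summed to 80.8 FPKM in shLuciferase and 101 FPKM in shETS1, most of it from ACTA2, whose locus overlaps other expressed genes, and PDPN. The leukocyte genes PTPRC, CD3E and TYROBP were listed at 0 in both groups, and the 6 leukocyte markers summed to 49.2 and 47.6 FPKM, nearly all of it CD68. Endothelial markers summed to 183 and 127 FPKM, carried by TIE1 and by CDH5, which was called lower, with VWF at 0.238 and 0.153 FPKM. Mesothelial markers summed to 26.6 and 33.9 FPKM, with MSLN the most abundant at 17.9 and 26.5 FPKM, and LRRN4 was the called member there, lower in shETS1. The part of these marker levels in the collagen results was not tested.

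HEYA8 cells expressed a small part of the collagen family. Only 13 of the 43 genes reached 1 FPKM in either group, 16 were tested by the authors, and 6 were listed at 0 in both groups (COL3A1, COL6A6, COL9A1, COL19A1, COL22A1 and COL28A1). No untested collagen exceeded 0.411 FPKM in either group. In shLuciferase the order of levels was COL6A2 at 116 FPKM, COL4A2 at 50.01, COL6A1 at 44.0, COL27A1 at 15.6, COL4A1 at 11.8 and COL18A1 at 11.8 FPKM. COL12A1, COL17A1 and COL5A2 followed at 5.40, 4.73 and 3.05 FPKM, and COL9A2, COL13A1, COL1A1 and COL7A1 lay between 1.55 and 1.08 FPKM. In shETS1 COL6A1 had moved past COL4A2 to place 2, COL4A1 had moved past COL27A1, and COL1A1 from place 12 to place 9. Without values per sample, it cannot be said which neighbours in these orders differ beyond their spread.

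**Figure D1:**
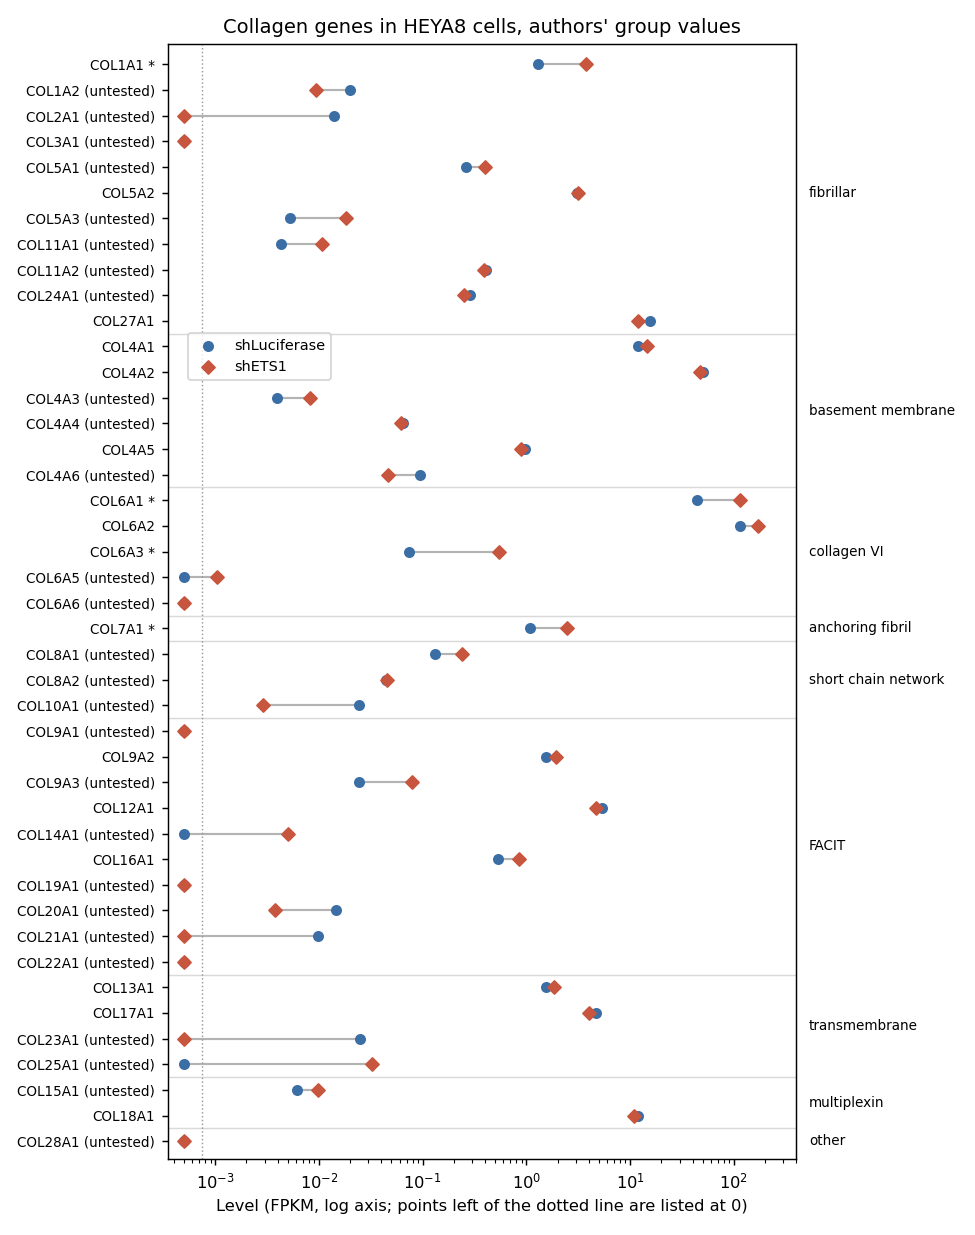
Level of each of the 43 collagen genes (FPKM, horizontal log axis) in shLuciferase (blue circles) and shETS1 (red diamonds), by structural class, with genes listed at 0 drawn left of the dotted line. Stars mark the 4 genes called higher. The collagen VI chains COL6A1 and COL6A2 are the most abundant in shETS1 at 114 and 172 FPKM, and most untested genes lie below 0.1 FPKM.

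Of the collagens, 4 were called higher after ETS1 knockdown and none lower. The called genes are COL6A1, which with COL6A2 gave most of the summed collagen level, and the less abundant COL6A3, COL1A1 and COL7A1. They are 4 of the 16 tested collagens. Of all 11952 tested rows in the authors' deposited table, 0.544% were called higher, 0.268% lower and 0.812% in either direction. Each of the 4 has the smallest p-value in the authors' deposited table, 5e-05, and a q-value of 0.00964. Other called rows share these values, ETS1, CTHRC1 and MMP9 among them, so they do not rank the 4. At an unadjusted p of at most 0.05, 6 collagens were higher and none lower in the authors' deposited table, where 3.9% of all tested rows were higher and 3.04% lower. The additional ones were COL6A2 and COL16A1. In these bulk values, a change in the number of cells that express a gene cannot be told apart from a change in its RNA per cell. As deposited, the family as a whole had no shared direction. Of the 13 tested collagens whose mean reached 1 FPKM, 8 had a log2 fold change above 0 and 5 below. Their median log2 fold change in the authors' deposited table was 0.27, against 0.02 over the 10676 tested rows above the same level, 52.5% of which were above 0. Where only means of 5 FPKM or more were kept, 7 collagens were left and the median was -0.09. The sign of the median of deposited values thus depended on the less abundant members. These counts also depend on a trend with base composition, described below. With that trend removed, COL4A2 and COL18A1 moved above 0 (0.06 and 0.07). COL27A1, COL12A1 and COL17A1 stayed below 0 (-0.25, -0.26 and -0.14).

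**Figure D2:**
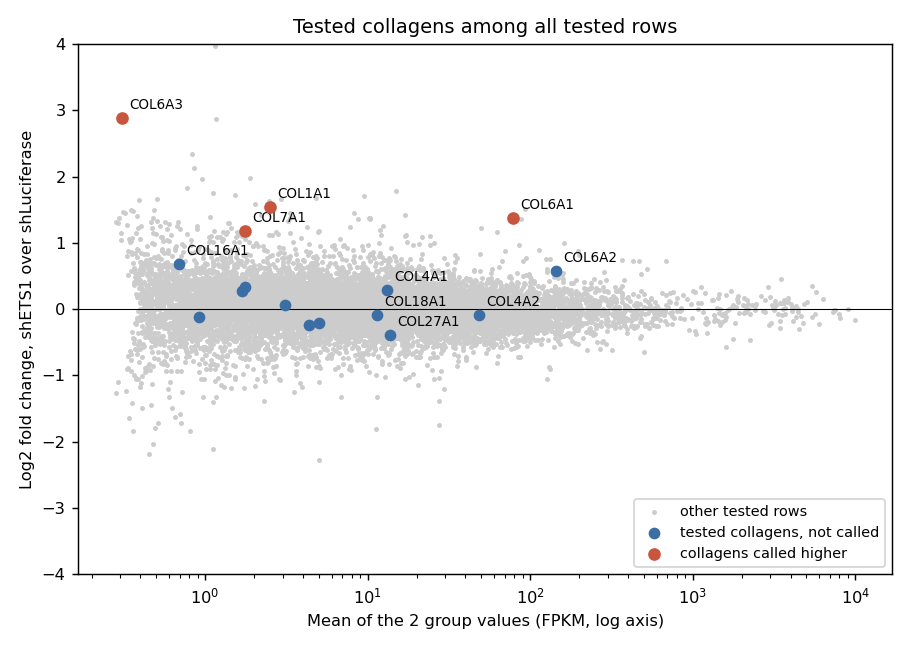
Log2 fold change of shETS1 over shLuciferase (vertical axis) against the mean of the group values (FPKM, horizontal log axis) for all tested rows (grey), the 4 called collagens (red) and the other 12 tested collagens (blue). Rows with no finite fold or beyond the axes are not drawn. COL6A1 at a log2 fold change of 1.37 lies at the upper edge of the rows of its level, while COL4A2 and COL18A1 lie close to 0.

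Collagen VI held the largest share of collagen RNA and most of the difference between the groups. COL6A1 and COL6A2, which encode chains that assemble with a longer chain into the collagen VI monomer, lie in tandem on chromosome 21 (hg19), with 93.1 kb between them. COL6A1 (47401663 to 47424963) rose 2.58-fold, from 44.0 FPKM under the luciferase hairpin to 114 under the ETS1 hairpin. Among 1651 other tested rows with a mean within 2-fold of its own, 1 had a log2 fold change as high. COL6A2 (47518033 to 47552763) was at 116 and 172 FPKM, 1.48-fold apart in the same direction, and was not called in the authors' deposited table (p = 0.0236, q = 0.529). Of 1031 tested rows near the level of COL6A2, 13 had as high a log2 fold change and the smallest called change there was 1.83-fold. COL6A2 RNA was 2.63 times as abundant as COL6A1 RNA in shLuciferase and 1.51 times in shETS1.

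The other chain genes of collagen VI were scarce. COL6A3 (chromosome 2, 238232655 to 238322850, hg19), whose chain is the long and usual partner of the COL6A1 and COL6A2 products, rose from 0.0738 to 0.546 FPKM. That 7.39-fold rise is the largest fold among the tested collagens, at a mean level at which 0.0669% of tested rows had a lower mean. Untested collagens reached 0.411 FPKM, above the shLuciferase level of COL6A3 and below its shETS1 level. COL6A3 may thus have entered the test only through shETS1. Its high fold, its call and its place among tested rows of its level may in part follow from that entry. In these levels per length, COL6A1 exceeded COL6A3 597-fold in shLuciferase and 208-fold in shETS1. COL6A5 and COL6A6, which encode chains that can take the place of the COL6A3 product, were at or near 0: COL6A5 was listed at 0 and 0.00103 FPKM. Of 588 tested rows with a mean within 2-fold of that of COL6A3, 1 had as high a log2 fold change as COL6A3 and 3 were called. After adding 1 FPKM to each level, COL6A3 had a log2 ratio of 0.53, against 2.89 in the authors' deposited table, while that of COL6A1 was 1.35, against 1.37.

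Summed over all 43 genes, collagen levels came to 271 FPKM in the control and 396 under ETS1 knockdown, 1.46-fold apart. Collagen VI chains made up 59.1% of the sum in shLuciferase and 72.3% in shETS1. The other 41 genes, without COL6A1 and COL6A2, summed to 111 and 110 FPKM. The difference in the sum was thus carried by those chain genes, of which COL6A1 was called and COL6A2 was not.

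**Figure D3:**
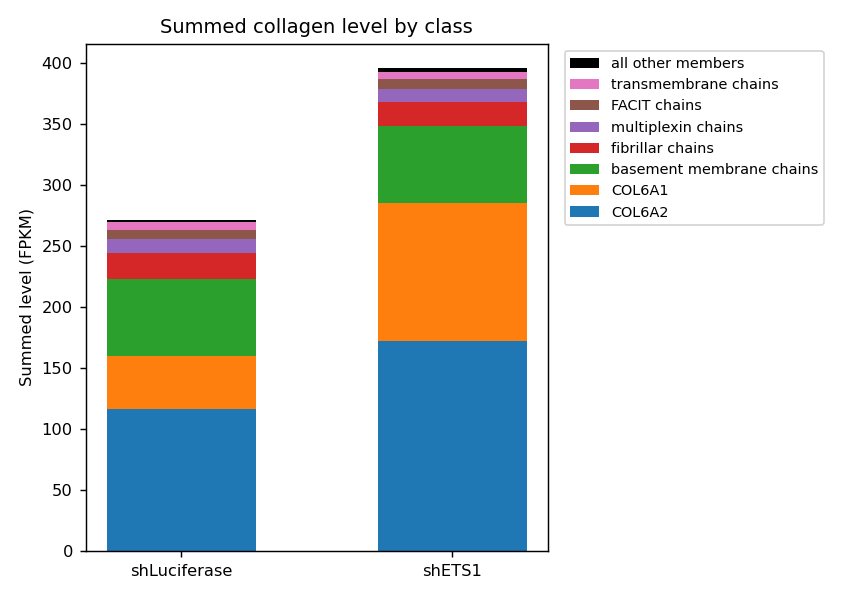
Summed level of the collagen genes (FPKM, vertical axis from 0) in shLuciferase and shETS1, stacked by COL6A2, COL6A1 and the other classes. The bars reach 271 and 396 FPKM; COL6A1 and COL6A2 widen while basement membrane chains take up 63.0 and 62.6 FPKM.

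Fibrillar collagens split by chain. COL1A1 (chromosome 17, 48261457 to 48279000, hg19), the main chain of the collagen of bone and scar, rose from 1.29 to 3.75 FPKM, 2.91-fold. Of 3005 tested rows near its level, 7 had as high a log2 fold change. Its partner COL1A2 was untested at 0.0201 and 0.00934 FPKM, so COL1A1 exceeded COL1A2 64.0-fold in shLuciferase and 401-fold in shETS1, the latter over a level close to 0. COL3A1, which stromal cells express together with collagen I, was listed at 0 in both groups. COL27A1, a fibrillar chain best known from cartilage, was the most abundant of the class at 15.6 and 11.9 FPKM, and COL5A2, a chain of the collagen that nucleates fibrils, was at 3.05 and 3.17 FPKM. Neither was called in the authors' deposited table, with q-values of 1.00 for each. COL5A1, the usual partner of COL5A2, was untested at 0.260 and 0.397 FPKM. COL11A2 was untested at 0.411 and 0.387 FPKM, and its deposited locus is an alternative haplotype contig of chromosome 6, so its reads are uncertain. The remaining fibrillar chain genes COL2A1, COL5A3, COL11A1 and COL24A1 were untested, at most 0.284 FPKM.

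COL7A1 (chromosome 3, 48601506 to 48632593, hg19), the only chain of the anchoring fibrils of epithelia, rose from 1.08 to 2.45 FPKM, 2.27-fold. Near its level 22 of 2646 tested rows had as high a log2 fold change, and the smallest called change was 1.96-fold. COL7A1 and COL1A1 lie close to the 1 FPKM line, and after adding 1 FPKM to each level their log2 ratios were 0.73 and 1.05, against 1.18 and 1.54 in the authors' deposited table.

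The DNA upstream of 3 of these genes is shown: COL6A3 and COL7A1 as called genes, and COL6A2 as the most abundant collagen. The sequences are from the promoter table of RefSeq (GRCh38.p14), in which 31 of the 43 collagens had an entry. The called COL6A1 and COL1A1 had none, so the DNA upstream of them was not examined. Each line gives the 250 bases before the gene's start, 5′ to 3′ on the gene's strand, with every GGAA or its other strand TTCC in capitals.

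COL6A2, chr21:46097862-46098111, plus strand: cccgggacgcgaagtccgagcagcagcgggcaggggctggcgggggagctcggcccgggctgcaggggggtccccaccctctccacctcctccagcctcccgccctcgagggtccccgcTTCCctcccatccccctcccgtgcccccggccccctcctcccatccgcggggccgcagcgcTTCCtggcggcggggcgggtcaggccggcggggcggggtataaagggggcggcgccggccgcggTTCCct

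COL6A3, chr2:237414165-237414414, minus strand: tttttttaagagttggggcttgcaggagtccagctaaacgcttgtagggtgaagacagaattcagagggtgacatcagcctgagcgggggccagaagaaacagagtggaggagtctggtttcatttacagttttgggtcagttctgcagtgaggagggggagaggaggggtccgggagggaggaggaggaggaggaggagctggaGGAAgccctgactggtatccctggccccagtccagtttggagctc

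COL7A1, chr3:48595330-48595579, minus strand: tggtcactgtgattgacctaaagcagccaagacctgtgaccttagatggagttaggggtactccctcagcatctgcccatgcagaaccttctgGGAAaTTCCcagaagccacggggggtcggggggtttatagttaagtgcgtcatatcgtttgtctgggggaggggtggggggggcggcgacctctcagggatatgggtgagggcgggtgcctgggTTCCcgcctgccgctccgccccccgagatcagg

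The ETS core appears 3 times upstream of COL6A2, 1 time upstream of COL6A3 and 3 times upstream of COL7A1. Among abundant collagens that were not called, windows of the same length held 4 matches for COL27A1, 2 for COL4A2, 0 for COL4A1 and 0 for COL18A1. The less abundant tested collagens that were not called and had an entry held 8 for COL4A5, 7 for COL17A1, 3 for COL12A1, 3 for COL16A1, 2 for COL13A1 and 1 for COL9A2. Such matches are common: GGAA or TTCC was found in 92.8% of 27305 upstream windows of the same length and in 28 of the 31 collagen windows (90.3%), with a median of 3 matches per window over all genes and 2 over collagens. The longer form CCGGAAG (or CTTCCGG), which contains the core, was found in 8.82% of all windows and in 0 of the 31 collagen windows. These are matches of letters within 250 bases and not measured binding.

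Basement membrane collagen was abundant, and none of its 3 tested chain genes was called, where 0.812% of all tested rows were called in either direction. COL4A2 was at 50.01 FPKM in the control and 47.1 under ETS1 knockdown, and its partner COL4A1 at 11.8 and 14.5 FPKM, with p-values of 0.716 and 0.211 in the authors' deposited table. COL4A1 and COL4A2 run in opposite directions from a shared stretch on chromosome 13, with 134 bases between the deposited loci (hg19). COL4A2 exceeded COL4A1 4.23-fold in shLuciferase and 3.25-fold in shETS1. The stretch is shown because both genes start from it, taken from the RefSeq starts (GRCh38.p14) on the strand of COL4A2, which leave 126 bases between them.

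COL4A1 and COL4A2, chr13:110307158-110307283, plus strand: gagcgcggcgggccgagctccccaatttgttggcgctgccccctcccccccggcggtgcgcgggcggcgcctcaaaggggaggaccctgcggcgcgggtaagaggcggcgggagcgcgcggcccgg

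The stretch is 80.2% G and C and holds 0 matches to the ETS core, so no letter is in capitals. It is shorter than the windows of 250 bases counted above, of which that of COL4A2 holds 2 matches. The other head-to-head pairs of collagen IV were scarce. COL4A5 was tested at 0.960 and 0.885 FPKM and not called in the authors' deposited table (p = 0.686), its partner COL4A6 was untested at 0.0950 and 0.0458 FPKM, and COL4A3 and COL4A4 did not exceed 0.0643 FPKM in either group. The 6 collagen IV genes summed to 63.0 and 62.6 FPKM.

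The FACIT, transmembrane and multiplexin members had no called gene, where 0.812% of all tested rows were called in either direction. COL12A1, a FACIT chain of dense connective tissue, was at 5.40 and 4.65 FPKM, and COL9A2, a chain of the cartilage FACIT collagen IX, at 1.55 and 1.95 FPKM, while the partners COL9A1 and COL9A3 of the latter did not exceed 0.0797 FPKM. COL16A1, a FACIT chain found in several tissues, was at 0.533 and 0.854 FPKM, with p = 0.0283 and q = 0.576 in the authors' deposited table. COL17A1, the hemidesmosome collagen of epithelial cells, was at 4.73 and 4.01 FPKM, and COL13A1, also a membrane-spanning chain, at 1.54 and 1.85 FPKM. COL18A1, the precursor of endostatin, was at 11.8 and 11.0 FPKM, and its deposited locus is shared with SLC19A1, so its reads are uncertain. The q-values of COL12A1, COL9A2, COL17A1, COL13A1 and COL18A1 in the authors' deposited table were all 1.00. A p-value that misses the threshold does not show that these levels were equal: near the level of COL18A1 the smallest called change was 1.85-fold, and near that of COL16A1 2.22-fold. Of the 27 untested collagens, the short chain network genes COL8A1, COL8A2 and COL10A1 did not exceed 0.237 FPKM. The untested FACIT genes COL14A1, COL20A1 and COL21A1, the membrane-spanning COL23A1 and COL25A1 and the multiplexin COL15A1 did not exceed 0.0328 FPKM in either group.

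Collagen transcripts are rich in G and C, and the fold changes of this comparison varied with base composition. The 16 tested collagens had a median transcript GC content of 61.2%, against 49.9% over 9681 tested rows that reached a mean of 1 FPKM and had a GC value. Across those rows Spearman's rho of GC content with the log2 fold change was -0.47, a description over genes, which are not independent replicates. The 2676 rows with a GC content between 54.9% and 63.9%, the middle range of the collagens, had their median log2 fold change at -0.13. With a cubic trend on GC content removed, the log2 fold changes of the called genes were 1.53 for COL6A1, 1.68 for COL1A1, 1.34 for COL7A1 and 2.95 for COL6A3, each further from 0 than as deposited. The uncalled COL4A2 and COL18A1 changed sign with the trend removed, from -0.09 to 0.06 and from -0.10 to 0.07. The cause of the trend was not tested.

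**Figure D4:**
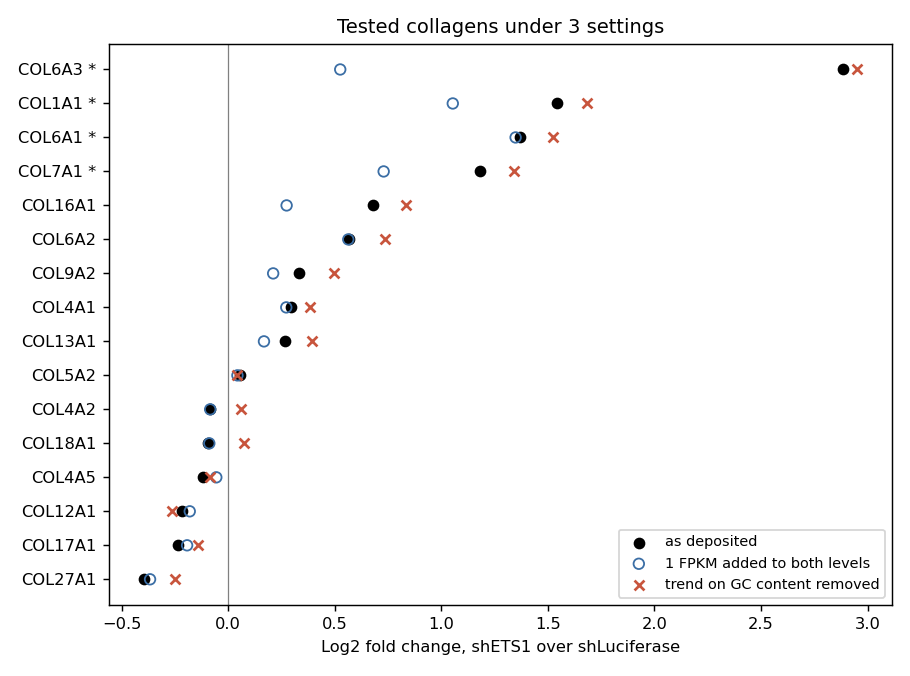
Log2 fold change (horizontal axis) of the 16 tested collagens as deposited (black), after adding 1 FPKM to each level (open blue circles) and with a trend on transcript GC content removed (red crosses); stars mark called genes. The added FPKM moves COL6A3 from 2.89 to 0.53 and leaves COL6A1 near 1.35, and COL4A2 and COL18A1 cross 0 when the GC trend is removed.

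Of 18 genes that modify and fold collagen, 17 were tested and none was called in the authors' deposited table. With 0.812% of all tested rows called in either direction, so short a list need hold no call. At an unadjusted p of at most 0.05, 1 was higher and 2 were lower, where 3.9% of all tested rows were higher and 3.04% lower. PPIB, a proline isomerase of the prolyl 3-hydroxylase complex, was the most abundant at 592 and 703 FPKM. LEPREL1, which encodes a prolyl 3-hydroxylase, had the largest log2 fold change in size among genes reaching 5 FPKM (0.80), at 4.25 and 7.39 FPKM (q = 0.152 in the authors' deposited table). SERPINH1, the collagen-specific chaperone HSP47, was at 65.6 and 41.6 FPKM with p = 0.0066 and q = 0.266 in the authors' deposited table. P4HB, the shared subunit of prolyl 4-hydroxylases, was at 349 and 241 FPKM with p = 0.0416 and q = 0.678 in the authors' deposited table. SERPINH1 and P4HB lay in the opposite direction to the called collagens and were named after their values were seen. Of 11 tested genes of procollagen export none was called, beside the same 0.812% of all tested rows. SEC13, a coat protein of export vesicles, was at 157 and 156 FPKM, and CUL3, a ubiquitin ligase scaffold, at 7.69 and 9.26 FPKM.

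Among 11 tested genes of propeptide cleavage and crosslinking, LOXL1 was the called gene, where 0.544% of all tested rows were called higher. This lysyl oxidase, which crosslinks elastin and collagen, rose from 13.9 to 27.4 FPKM (q = 0.0352 in the authors' deposited table). Of its family, LOX was at 6.26 and 6.29 FPKM, LOXL2 at 51.6 and 54.98 FPKM and LOXL3 at 6.03 and 5.95 FPKM, while LOXL4 was at 0.535 and 0.759 FPKM, none of them called; the loci of LOXL2 and LOXL3 overlap other expressed genes. TGM2, a transglutaminase, was the most abundant at 718 and 630 FPKM. ADAMTS2, the procollagen N-proteinase, was at 0.311 and 0.741 FPKM with p = 0.00755 and q = 0.285 in the authors' deposited table, and was named after its values were seen.

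No collagen receptor of 9 tested was called, which is near the share of 0.812% of all tested rows called in either direction. ITGB1, the beta chain of the collagen-binding integrins, was the most abundant and had the largest log2 fold change in size among genes reaching 5 FPKM (0.60), at 100.4 and 153 FPKM (p = 0.0146, q = 0.424 in the authors' deposited table). Of 12 tested genes of collagen degradation 6 had a log2 fold change above 0, as did 6352 of all 11952 tested rows, and 2 were called higher. These were the collagenase MMP1, from 0.816 to 2.01 FPKM, and the gelatinase MMP9, from 0.517 to 1.73 FPKM (q = 0.0306 and 0.00964 in the authors' deposited table). CTSB, a lysosomal protease, was at 214 and 228 FPKM and CTSL1 at 88.3 and 110.5 FPKM. Of 10 tested matrix proteins associated with collagen 8 had a log2 fold change above 0, with a median of 0.39 over the 10. All 10 reached a mean of 1 FPKM, and 52.5% of all tested rows above that level had a log2 fold change above 0. Only 1 was called higher: CTHRC1, a secreted protein with a short collagen repeat, from 13.9 to 29.6 FPKM (q = 0.00964 in the authors' deposited table). FN1, fibronectin, was the most abundant of that list at 415 and 632 FPKM and was not called (q = 0.978 in the authors' deposited table). Over the 6 lists, 4 of 70 tested genes were called higher and none lower in the authors' deposited table, where 0.544% of all tested rows were called higher and 0.268% lower. Their median log2 fold change over 60 genes whose mean reached 1 FPKM was 0.13, against 0.02 over all such rows.

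**Figure D5:**
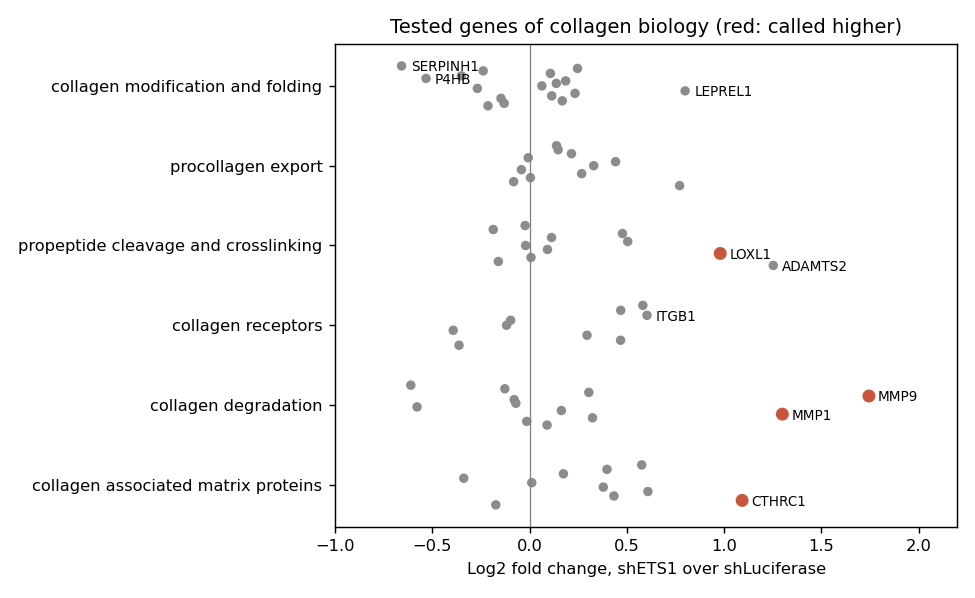
Log2 fold change of shETS1 over shLuciferase (horizontal axis) of each tested gene on the 6 lists of collagen biology (rows; the vertical offset within a row only separates points). The 4 called genes, LOXL1, CTHRC1, MMP1 and MMP9, are red and lie on the higher side; SERPINH1 and P4HB are the lowest of the modification list.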

How the data were processed

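Polyadenylated RNA of 6 samples was sequenced, 3 per group. The submitters' processing notes list Cufflinks 2.1.1, SAMtools 0.1.18, TopHat2 2.0.7 and Bowtie2 2.0.6, and build hg19. Neither their roles nor the annotation is given in the sources used here. No strand-marking step is described, so overlapping genes cannot be separated. Per the file headers, the authors combined each group and deposited FPKM values, a log2 fold change, a score (the test statistic, left unused) and p-values and q-values per gene. Hence no test was fitted here, and the calls are the authors' at a q-value of at most 0.05.

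From these values medians, sums, ratios, and counts per list were computed (Python 3.11.15, pandas 2.3.3, NumPy 2.4.6). The counting of calls and the removal of the GC trend were tested on simulated data. A locus counted as overlapping where it met another row of at least 1 FPKM. Transcript GC content came from GENCODE 29 (the transcript with the longest coding sequence, matched by symbol), for 90.7% of the rows fitted. Sequences came from RefSeq tables. Coordinates were written to count from 1.

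The members and lists were chosen with earlier results of these data known. Named are collagens that reach 1 FPKM, are called or have p of at most 0.05, and from each other list the called, the most abundant and the most changed gene at 5 FPKM or more; a gene named otherwise was chosen after its values were seen, the untested collagens among them.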

Additional observations from a re-analysis of the deposited data

How the results depend on the processing

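No paired analysis was possible because the deposited table has no values per sample, so replicate numbers could not enter a fit and no replicate could be left out. The 4 higher and 0 lower collagen calls were the same at q of at most 0.10 and at most 0.01 and among loci without an overlap. The 4 share the q-value that goes with the smallest deposited p-value, so the threshold of 0.01 is no further test of them. Among genes reaching 1 FPKM 3 were left, without COL6A3, and 6 higher were found at an unadjusted p of at most 0.05. The 4 higher calls on the other lists became 2 at q of at most 0.01, and at an unadjusted p of at most 0.05 they became 9 higher and 4 lower. The collagen median log2 fold change of 0.27 turned to -0.0865 when only means of at least 5 FPKM were kept. It was 0.17 with 1 FPKM added, 0.25 with 0.1 FPKM added and 0.25 centred on the median of all rows. It was 0.38 with the GC trend removed, 0.28 with no filter on low values and 0.28 without overlapping loci. Removal of the GC trend was not combined with the limit of 5 FPKM. The called collagens and ETS1 kept their sign under each added constant, the centring and the GC trend. Depth is unknown, so no detection limit can be given for collagens listed at 0.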

Other observations

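Of the 4 called collagens, COL6A3 and COL1A1 each had 1 other called row within 200 kb, and COL6A1 and COL7A1 had none. Within 200 kb of COL6A1, COL6A3, COL1A1 and COL7A1, 27 other rows were tested, of which 1 was called higher and 1 lower in the authors' deposited table, and their median log2 fold change was -0.06. The higher one is MLPH (melanophilin, a Rab effector), the only tested row in the window of COL6A3. MLPH starts 72.2 kb from the end of the COL6A3 locus on chromosome 2 (hg19) and was at 2.30 and 7.32 FPKM in control and knockdown (q = 0.00964 in the authors' deposited table). The lower one is TMEM92, 69.8 kb from COL1A1 on chromosome 17, at 2.02 and 0.884 FPKM (q = 0.0306 in the authors' deposited table). Of the 97 called rows, 8 had another called row within 200 kb, 8.25%, against 404 of the 11952 tested rows, 3.38%. The 8 include COL6A3, MLPH, COL1A1 and TMEM92 themselves. The 8.25% is thus no separate background for these pairs, and whether called rows lie close together was not tested. UCN2, which encodes the hormone urocortin 2 and lies 0.305 kb from COL7A1, was at 0.675 and 1.43 FPKM, with p = 0.042 and q = 0.678 in the authors' deposited table. These genes were chosen by position, and their values were seen before they were named.

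The integrins are the family of adhesion receptors that includes the collagen-binding ones. Of 26 integrin genes 13 were tested, with 0 called in the authors' deposited table. There 0.812% of all tested rows were called in either direction, so a count of 0 is near that share. At an unadjusted p of at most 0.05, 1 integrin, ITGB1, was higher, as were 3.9% of all tested rows. The median log2 fold change of genes whose mean reached 1 FPKM was 0.13 for 10 integrins, against 0.27 for the 13 collagens. The difference between the families was not tested.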
